A study of Arabidopsis thaliana with 8 samples.

Results

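The transcripts described are those of 8 genes of chlorophyll and tetrapyrrole synthesis in *Arabidopsis thaliana*: HEMA2 (AT1G09940), GSA1 (AT5G63570), HEMB1 (AT1G69740), HEME1 (AT3G14930), HEME2 (AT2G40490), CHLM (AT4G25080), PORB (AT4G27440) and CHLP (AT1G74470). They were taken by name from a list of pathway genes, each through the brightest probe set that the array annotation assigns to that gene alone. Each had exactly 1 such probe set, and these 8 genes stand among 13286 genes that have one. All 8 passed the filter on dim probe sets. The list was chosen with earlier results of these data known. Counts of these genes set against all tested probe sets are therefore descriptions, not independent tests. Seedlings were 7 days old, grown in darkness and harvested whole, and the groups were the mutant dez on high-zinc medium (100 µM zinc), dez on control medium (1 µM zinc), wild type on high zinc and wild type on control medium. Each group had 2 biological replicates of about 45 pooled seedlings, 1 Affymetrix ATH1 array each, so 8 arrays limit the precision. The dez lesion is known to lie in TBR, a gene of wall polysaccharide acetylation; the sources used here do not give the allele, and TBR itself passed the test in none of the comparisons (limma adjusted p from 0.0861 to 0.66).

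Plants build haem and chlorophyll in the plastid from glutamate. Glutamyl-tRNA reductase and an aminotransferase make 5-aminolevulinic acid, from which a chain of enzymes makes protoporphyrin IX. There the path divides: iron leads to haem, and magnesium leads to chlorophyll. In the dark, flowering plants stop at protochlorophyllide, because the next enzyme, protochlorophyllide oxidoreductase, needs light. Etiolated seedlings hold that enzyme ready with its pigment and NADPH, and free protochlorophyllide makes them sensitive to light, so the path is held under tight control.

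The deposited values are linear intensities, with array medians between 34.7 and 37.2. Differences below are on the scale of log2(intensity + 16), high zinc minus control or dez minus wild type, with limma standard errors and a threshold of 0.05 on the adjusted p. Technical controls on the arrays moved with the groups. The spiked poly-A controls had mean log2 intensities of 6.94 and 6.61 in dez on high zinc, 7.28 and 7.09 in dez on control medium, 7.30 and 7.86 in wild type on high zinc, and 7.43 and 7.91 in wild type on control medium. The 25S ribosomal RNA control ran the other way, with group means of 9.63, 8.18, 6.56 and 5.98 in the same order of groups. Its arrays in dez on high zinc differed, with 8.79 and 10.48. The gap in log2 intensity from the 3' to the 5' probe sets of actin and GAPDH had means of 1.202, 1.46, 1.59 and 1.78. Its arrays overlapped between neighbouring groups: 1.57 and 1.36 in dez on control medium, 1.67 and 1.51 in wild type on high zinc, and 1.99 and 1.57 in wild type on control medium. The part these controls play in the results was not tested beyond the alternative fits given beside them. In RNA of whole seedlings, fewer cells of a type and less RNA per cell cannot be told apart.

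Transcripts of the later steps of the pathway were lower in dez on high zinc than in dez on control medium. HEME1, HEME2, CHLM, PORB and CHLP fell to between 39.7% and 51.7% of their mean intensity in dez on control medium, HEMA2 rose, and GSA1 and HEMB1 did not pass. Of the 8 genes 5 were lower, against 17.4% of the 13648 probe sets tested, and 1 was higher, against 16.8%. Both high-zinc arrays were below both control arrays for 6 of the 8, against 35.3% of all tested probe sets, and above them for 1, against 36.4%. The median of the 8 was -0.90 on the log2 scale, and that of all tested probe sets was 0.01.

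**Figure D1:**
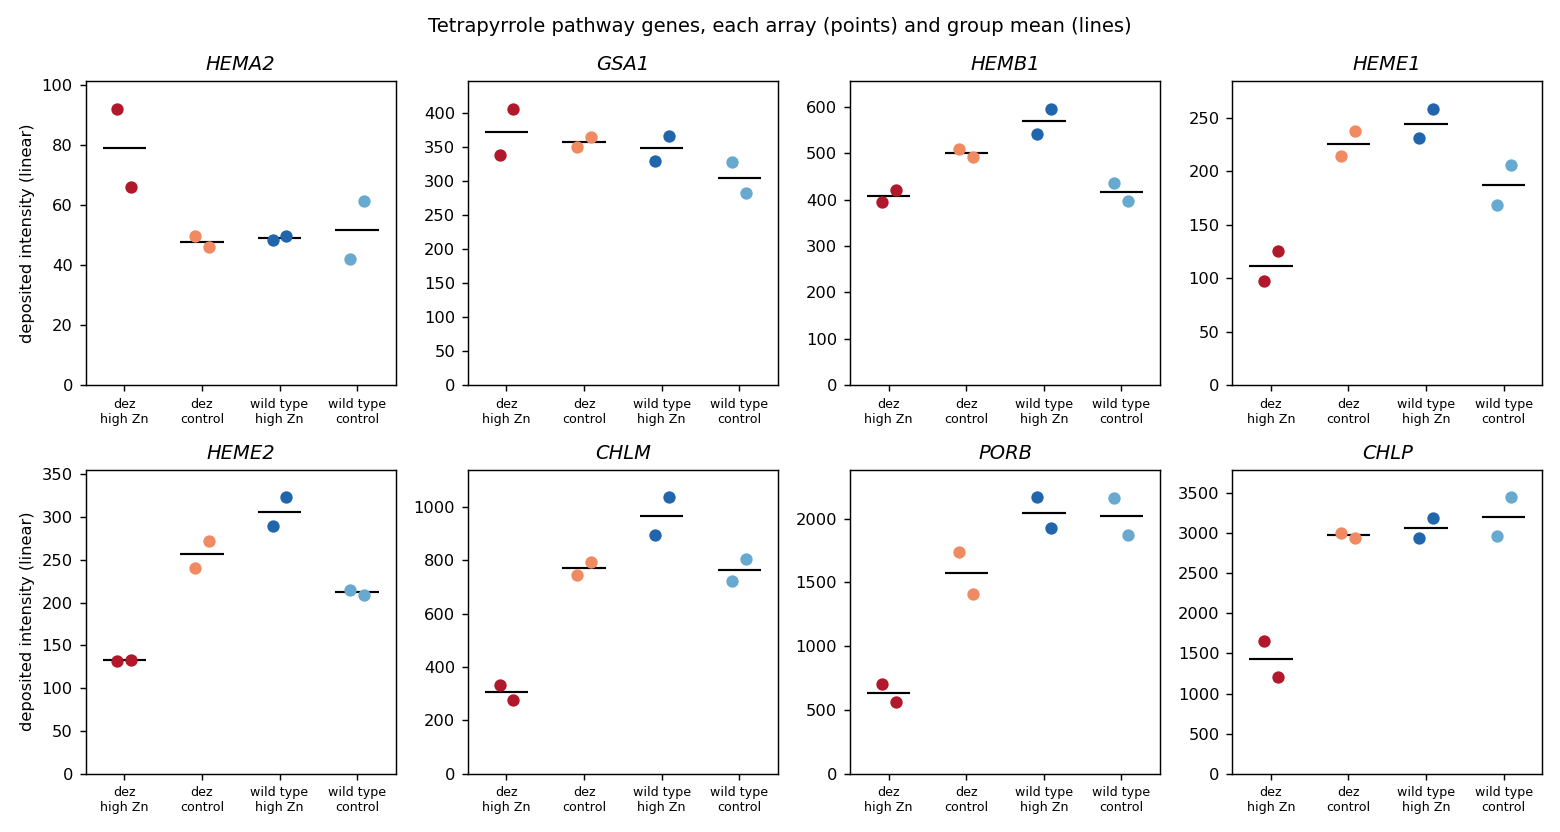
Deposited intensity (linear, vertical axis from 0) of each gene on each of the 8 arrays, by group; points are arrays and lines are means of 2. The arrays of dez on high zinc lie below all others for HEME1, HEME2, CHLM, PORB and CHLP and above all others for HEMA2.

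The first steps differed from each other. HEMA2 encodes a glutamyl-tRNA reductase, the enzyme that commits glutamate to the pathway, and is known in Arabidopsis as the form less tied to light and greening. Its intensity was 92.0 and 65.8 in dez on high zinc, 49.5 and 46.02 in dez on control medium, 48.3 and 49.6 in wild type on high zinc, and 42.1 and 61.2 in wild type on control medium. Both arrays of dez on high zinc were above all 6 others, and the 3 other groups overlapped. In dez HEMA2 rose with zinc by 0.56 ± 0.16 (SE, limma adjusted p = 0.0201). That call rests on few arrays: the difference was 0.36 (adjusted p = 0.167) without dez high-zinc replicate 1, and the adjusted p = 0.0674 and 0.108 without dez control replicate 1 or 2. With the 3' to 5' gap as a covariate it was 0.40 (adjusted p = 0.16).

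GSA1 encodes glutamate-1-semialdehyde aminotransferase, which makes 5-aminolevulinic acid. It had 338.4 and 407.1 in dez on high zinc, 350.3 and 365.1 in dez on control medium, 330.5 and 367.1 in wild type on high zinc, and 328.0 and 282.3 in wild type on control medium. The ranges of the first 3 of these groups overlapped. Zinc gave a difference of 0.05 in dez, with a 95% interval from -0.23 to 0.33. That interval does not overlap those of the 5 genes that fell. HEMB1 encodes 5-aminolevulinic acid dehydratase, which makes the pyrrole porphobilinogen. It had 394.3 and 420.5 in dez on high zinc, 508.5 and 491.4 in dez on control medium, 540.6 and 595.9 in wild type on high zinc, and 436.4 and 397.6 in wild type on control medium. In dez both high-zinc arrays were below both control arrays, and the difference was -0.29 ± 0.11 (limma adjusted p = 0.0599), just outside the threshold. It passed with quantile normalization (-0.34, adjusted p = 0.0309) and with only the 4 dez arrays in the fit (adjusted p = 0.0376). It had -0.24 with the 3' to 5' gap as a covariate (adjusted p = 0.217) and turned to 0.11 under poly-A spike scaling (adjusted p = 0.827), and with an array left out the adjusted p ran from 0.0535 to 0.249.

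HEME1 and HEME2 are paralogues that encode uroporphyrinogen III decarboxylase, the step after the branch to sirohaem. HEME1 had 97.0 and 125.0 in dez on high zinc, 214.2 and 237.5 in dez on control medium, 230.8 and 258.6 in wild type on high zinc, and 168.9 and 206.2 in wild type on control medium. HEME2 had 132.4 and 133.0 in dez on high zinc, 240.6 and 272.7 in dez on control medium, 289.2 and 323.2 in wild type on high zinc, and 215.3 and 209.2 in wild type on control medium. The arrays of dez on high zinc were the lowest of all for both genes. In dez HEME1 fell with zinc by 0.94 ± 0.14 (limma adjusted p = 6.12e-04) and HEME2 fell by 0.87 ± 0.11 (adjusted p = 1.95e-04). The 95% intervals, -1.25 to -0.62 and -1.12 to -0.63, largely coincide.

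CHLM, PORB and CHLP fell further in point estimate, with intervals that overlap those of HEME1 and HEME2. CHLM encodes the methyltransferase that acts on magnesium protoporphyrin IX. It had 334.2 and 277.2 in dez on high zinc, 746.1 and 795.8 in dez on control medium, 896.2 and 1036 in wild type on high zinc, and 721.1 and 803.9 in wild type on control medium. Zinc lowered it in dez by a log2 difference of -1.30 ± 0.12 (limma adjusted p = 3.23e-05). The ranges of dez and wild type on control medium overlapped, and dez on high zinc lay far below both.

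PORB encodes a protochlorophyllide oxidoreductase, the light-dependent enzyme at which the path waits in the dark. Its intensity was 705.8 and 561.5 in dez on high zinc, 1741 and 1412 in dez on control medium, 2167 and 1925 in wild type on high zinc, and 2164 and 1874 in wild type on control medium. The dez arrays on either medium were below all 4 wild-type arrays. The zinc difference in dez was -1.29 ± 0.14 (limma adjusted p = 8.01e-05). CHLP encodes geranylgeranyl reductase, which makes the phytyl chain of chlorophyll and of tocopherols. It had 1655 and 1212 in dez on high zinc, 3007 and 2939 in dez on control medium, 2942 and 3191 in wild type on high zinc, and 2958 and 3445 in wild type on control medium. The last 3 of these groups overlapped, and the zinc difference in dez was -1.06 ± 0.14 (limma adjusted p = 2.26e-04).

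These falls are relative to the other transcripts on the array. Scaled to the spiked poly-A controls, the median of all tested probe sets in dez moved to 0.35. None of the 8 genes was called lower by limma, while HEMA2 was higher by 0.92 (adjusted p = 0.0124). This 1 call of 8 stands against 15.1% of all tested probe sets called in either direction in that scaling. The standard errors of the 8 genes rose to between 0.28 and 0.36, against 0.11 to 0.16 as deposited. In that scaling CHLM, PORB, CHLP, HEME1 and HEME2 had -0.90, -0.89, -0.65, -0.57 and -0.50, with adjusted p from 0.0597 to 0.291. Relative to the moved median, the same genes stood at -1.26, -1.24, -1.01, -0.92 and -0.85. The scaling divides every probe set of an array by the same factor, so these values lie close to the deposited ones by construction.

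**Figure D2:**
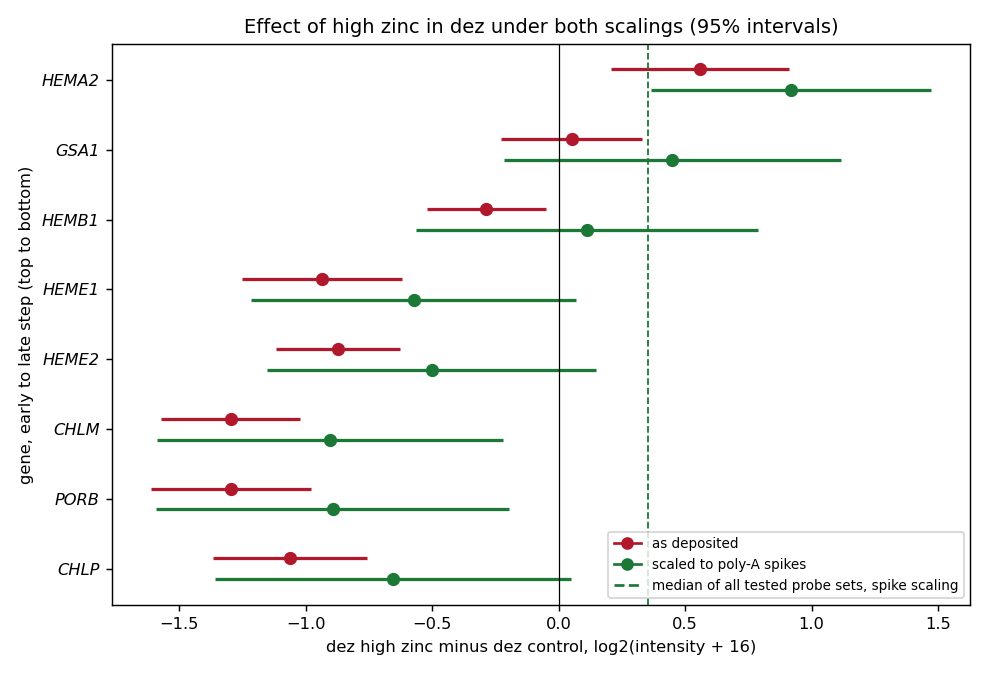
Log2 difference between high zinc and control medium in dez (horizontal axis) for each gene as deposited and after scaling to the spiked poly-A controls; bars are 95% intervals (2 arrays a group). Under spike scaling all 8 genes and the median of all tested probe sets, the dashed line at 0.35, lie further right and the intervals are wider.

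In wild type none of the 8 genes passed for high zinc, against 0.725% of all tested probe sets, and 4 had an unadjusted p under 0.05, against 11.5% of all. Those were HEME2 with 0.50 ± 0.11 (limma adjusted p = 0.0879), HEMB1 with 0.43 ± 0.11 (adjusted p = 0.122), HEME1 with 0.36 ± 0.14 (adjusted p = 0.353) and CHLM with 0.33 ± 0.12 (adjusted p = 0.323). In size these 4 differences exceeded those of 97.3%, 95.8%, 93.2% and 91.6% of all tested probe sets. For these 4 and for GSA1 both high-zinc arrays were above both control arrays, as was so for 21.2% of all tested probe sets. GSA1 had 0.19, with an interval from -0.09 to 0.46. HEMA2, PORB and CHLP had -0.04, 0.02 and -0.06, with overlapping arrays, and their intervals together span -0.40 to 0.34. The median of the 8 was 0.26, and that of all tested probe sets 0.00.

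**Figure D3:**
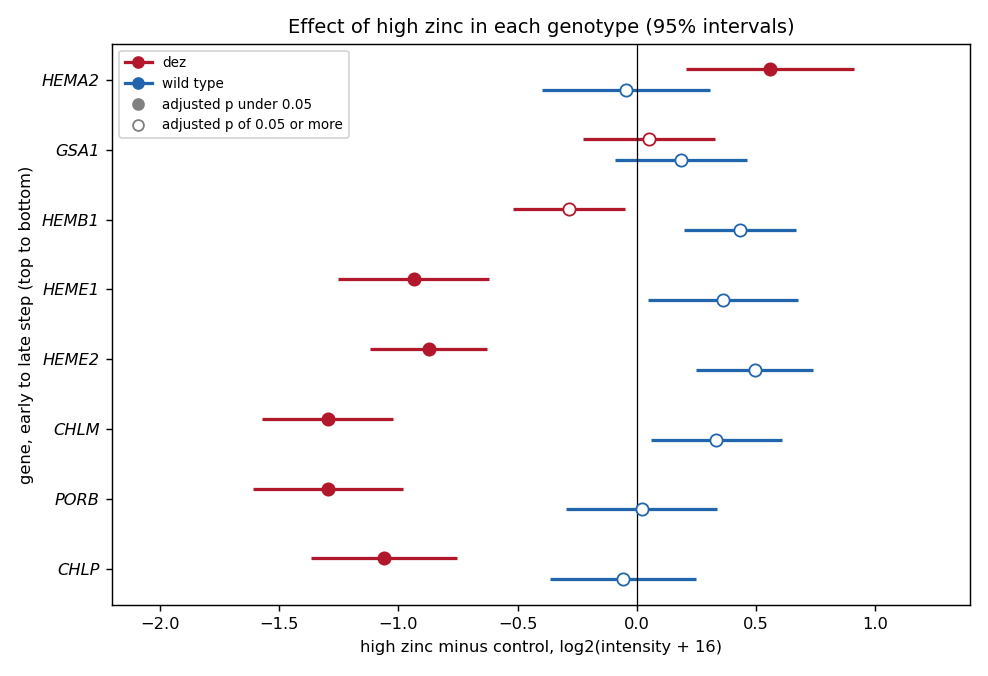
Log2 difference between high zinc and control medium (horizontal axis) for each gene in dez and in wild type; bars are 95% intervals (2 arrays a group) and filled points passed the threshold. In dez the 5 genes from HEME1 to CHLP lie between -1.30 and -0.87, and in wild type the 8 genes lie between -0.06 and 0.50, none past the threshold.

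Whether zinc acted differently by genotype was tested by the interaction, the zinc effect in dez minus that in wild type. It was negative and past the threshold for 6 of the 8 genes, against 10.6% of all tested probe sets, and positive for none, against 9.08%. CHLM had the most negative value, -1.63 ± 0.18 (SE, limma adjusted p = 1.96e-04), and 0.615% of the tested probe sets had a lower one. HEME2 had -1.37 ± 0.16 (adjusted p = 2.83e-04), PORB -1.31 ± 0.20 (adjusted p = 0.00136) and HEME1 -1.30 ± 0.20 (adjusted p = 0.00148). CHLP had -1.002 ± 0.19 (adjusted p = 0.00496) and HEMB1 -0.72 ± 0.15 (adjusted p = 0.00717). The genes came to these values in different ways. For PORB and CHLP the wild-type effect was near 0, and for HEMB1 the positive difference in wild type made up more of the interaction than the negative one in dez, neither past the threshold. GSA1 had -0.13, with an interval from -0.53 to 0.26. HEMA2 had 0.60 ± 0.22 (adjusted p = 0.0894), and passed without wild-type control replicate 1 (adjusted p = 0.0284) or without dez high-zinc replicate 2 (adjusted p = 0.0469). Under poly-A spike scaling none of the 8 passed (adjusted p from 0.124 to 0.872), against 4.26% of all tested probe sets. The standard errors rose to between 0.40 and 0.51, against 0.15 to 0.22 as deposited.

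On control medium none of the 8 genes passed between dez and wild type, against 9.67% of all tested probe sets, and 3 had an unadjusted p under 0.05, against 24.9% of all. PORB had -0.36 ± 0.14 (limma adjusted p = 0.144), with both dez arrays below both wild-type arrays, as was so for 26% of all tested probe sets. HEMB1, HEME2 and HEME1 each had 0.25 (adjusted p = 0.165, 0.185 and 0.303) and GSA1 0.22 (adjusted p = 0.306), with both dez arrays above both wild-type arrays, as was so for 31.7% of all tested probe sets. HEMA2, CHLM and CHLP had -0.07, 0.02 and -0.10, and their arrays overlapped. Under poly-A spike scaling the median of all tested probe sets moved to 0.40 and PORB had 0.12. GSA1, HEMB1, HEME1 and HEME2 had 0.68, 0.72, 0.70 and 0.70 in that scaling, with 95% intervals above 0 and adjusted p from 0.19 to 0.208. Relative to the moved median they stood at 0.27, 0.31, 0.29 and 0.30, again close to the deposited values by construction.

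On high zinc 6 of the 8 genes were lower in dez than in wild type, against 20.7% of all tested probe sets, and 1 was higher, against 22.3%. PORB and CHLM stood at 31.0% and 31.6% of their wild-type means, with log2 differences of -1.67 ± 0.14 (SE, limma adjusted p = 1.05e-05) and -1.61 ± 0.12 (adjusted p = 5.78e-06). HEME2 had -1.11, CHLP -1.10 and HEME1 -1.04, each with a limma adjusted p no higher than 2.24e-04. HEMB1 was lower by a log2 difference of -0.46 ± 0.11 (adjusted p = 0.00531), and HEMA2 was higher by 0.53 ± 0.16 (adjusted p = 0.0204). GSA1 had 0.09, with an interval from -0.19 to 0.37. With the 3' to 5' gap as a covariate HEMB1 and HEMA2 no longer passed: HEMB1 had -0.40 (adjusted p = 0.0957), and HEMA2 had 0.30 (adjusted p = 0.383). HEMA2 also missed the threshold without dez high-zinc replicate 1 (0.33, adjusted p = 0.17) and without either wild-type high-zinc array (adjusted p = 0.061 and 0.0634). Under poly-A spike scaling all tested probe sets had a median of 0.69, and PORB (-0.87, adjusted p = 0.0288) and CHLM (-0.83, adjusted p = 0.0346) were still lower. HEME1 (-0.31, adjusted p = 0.404), HEME2 (-0.37, adjusted p = 0.323) and CHLP (-0.30, adjusted p = 0.46) no longer passed. In that scaling HEMA2 (1.19, adjusted p = 2.20e-04) and GSA1 (0.87, adjusted p = 0.0236) were higher, and HEMB1 turned to 0.32 (adjusted p = 0.406). These 4 calls of 8 stand against 56.9% of all tested probe sets called in that scaling. The adjusted p-values there may be too small, because the error of scaling an array is shared by all its probe sets.

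**Figure D4:**
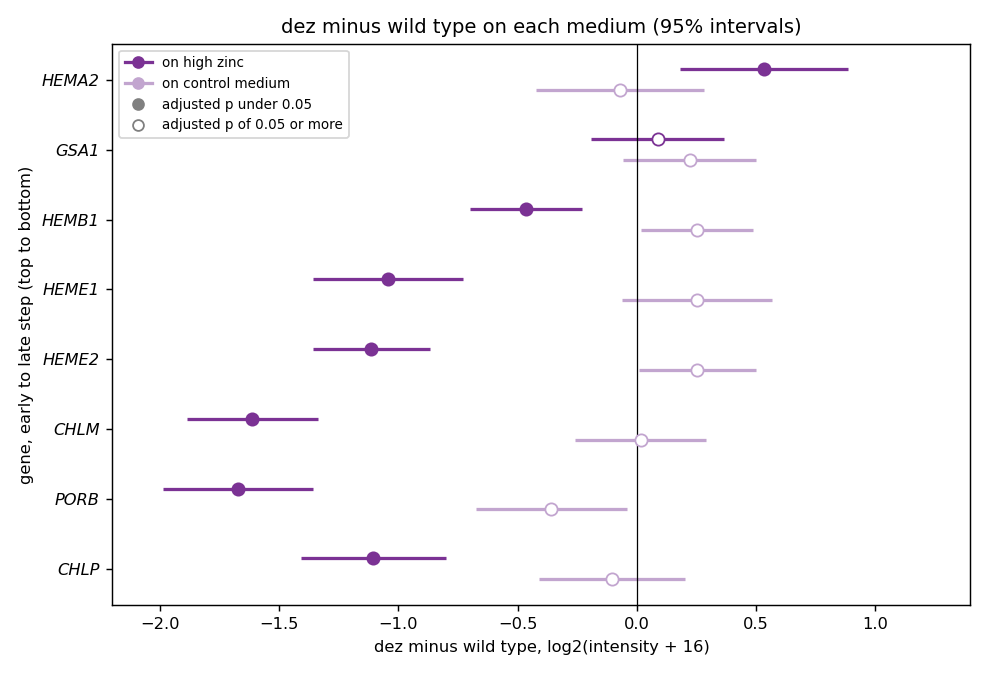
Log2 difference between dez and wild type (horizontal axis) for each gene, by medium; bars are 95% intervals (2 arrays a group) and filled points passed the threshold. On high zinc CHLM and PORB lie furthest left, at -1.61 and -1.67, and on control medium the 8 genes lie between -0.36 and 0.25.

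Set in order of their group means, the genes gave 5 orders. HEMB1, HEME1, HEME2 and CHLM were lowest in dez on high zinc, then wild type on control medium, then dez on control medium, and highest in wild type on high zinc. Within that order HEME2 showed no overlap between neighbours, while the arrays of HEME1 overlapped between dez on control medium and wild type on high zinc. Those of CHLM overlapped between the groups on control medium, and those of HEMB1 between dez on high zinc and wild type on control medium. PORB and CHLP were lowest in dez on high zinc with dez on control medium next, and the wild-type groups stood in opposite order for these genes. For PORB only the wild-type groups overlapped, whereas for CHLP the upper 3 groups did. HEMA2 was highest in dez on high zinc, with the other groups overlapping. GSA1 was lowest in wild type on control medium and varied least, with a ratio of 1.22 between its highest and lowest group mean, against 3.16 for CHLM and 3.23 for PORB.

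Several of the genes also varied together from array to array, which is given as a description over 8 arrays that share their groups. The 10 pairs among HEME1, HEME2, CHLM, PORB and CHLP had Pearson r from 0.81 to 0.96, and HEMA2 had negative r with all 7 others, from -0.80 to -0.0041. GSA1 had negative r with the 5 genes from HEME1 to CHLP, from -0.59 with CHLP to -0.14 with HEME2, and 0.30 with HEMB1. Without the 2 arrays of dez on high zinc the picture split. Over the other 6 arrays the pairs among HEMB1, HEME1, HEME2 and CHLM still had r from 0.72 to 0.94, with 0.86 for HEME1 and HEME2. PORB and CHLP had 0.07 with each other, and PORB had -0.40 with HEME1 and -0.10 with HEME2. PORB and CHLP with HEME1, HEME2 and CHLM lay between -0.40 and 0.26, so their high r with these 3 genes was seen only with the arrays of dez on high zinc included. HEMA2 and CHLP had r = 0.88 over the 6 arrays, against -0.68 over all 8. With HEME1 and CHLM the r of HEMA2 turned to 0.22 and 0.20, and with GSA1, HEMB1, HEME2 and PORB it stayed negative, from -0.65 to -0.06. The r of GSA1 turned to 0.51, 0.72 and 0.30 with HEME1, HEME2 and CHLM and was 0.79 with HEMB1. With PORB and CHLP it stayed negative, at -0.39 and -0.63.

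**Figure D5:**
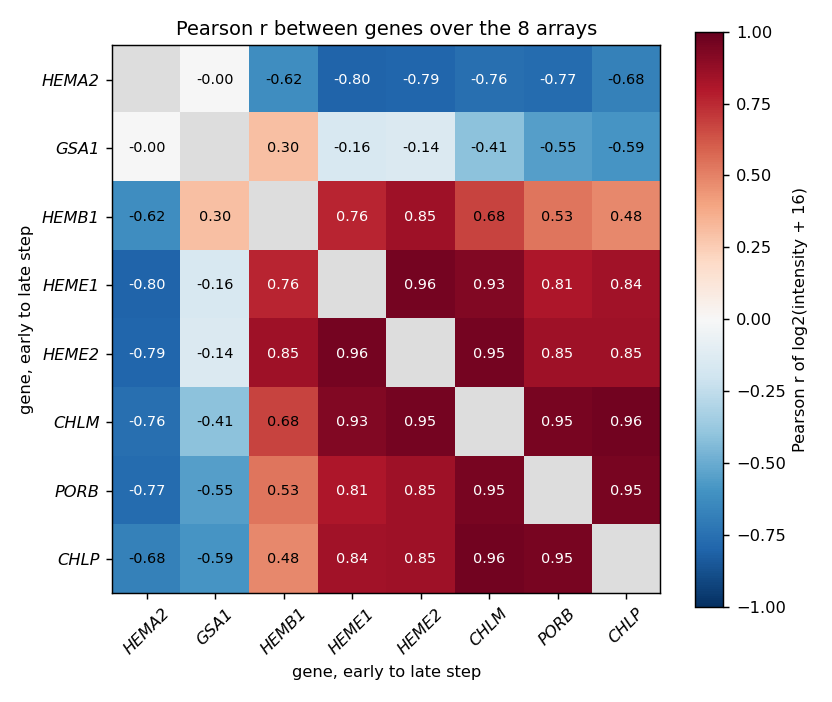
Pearson r of log2(intensity + 16) over the 8 arrays for each pair of genes, both axes in pathway order from early to late steps, with colour from -1 to 1. The block from HEME1 to CHLP is positive throughout, from 0.81 to 0.96, and HEMA2 is negative with the genes from HEMB1 on.

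Few other genes of the pathway could be read. Of 81 further genes of tetrapyrrole, chlorophyll, isoprenoid and carotenoid metabolism and of greening control, 7 had a probe set that the annotation assigns to that gene alone. Of these, 4 passed the filter. The genes without such a probe set in the annotation were not analysed here. CHLI2, a subunit of the chelatase that inserts magnesium, had 78.9 and 64.03 in dez on high zinc, 113.9 and 157.7 in dez on control medium, 151.7 and 147.9 in wild type on high zinc, and 104.1 and 105.6 in wild type on control medium. Its group means ran in the same order as those of HEME2 and CHLM. It fell in dez by 0.79 ± 0.15 (SE, limma adjusted p = 0.00206), and its interaction was -1.24 ± 0.21 (adjusted p = 0.00212).

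SIRB, the ferrochelatase that ends the sirohaem branch, had 153.6 and 145.4 in dez on high zinc, 99.9 and 114.0 in dez on control medium, 118.1 and 122.3 in wild type on high zinc, and 119.7 and 105.4 in wild type on control medium. It was the 1 gene of the 4 that rose with zinc in dez, by 0.43 ± 0.11 (limma adjusted p = 0.0136), and its interaction of 0.34 did not pass (adjusted p = 0.166). NOL, a chlorophyll b reductase, fell in dez by 0.33 ± 0.12 (adjusted p = 0.0489), with an interaction of -0.56 (adjusted p = 0.036). LYC, lycopene beta-cyclase of carotenoid synthesis, fell in dez by 0.42 ± 0.12 (adjusted p = 0.0168), with an interaction of -0.27 that did not pass (adjusted p = 0.292). The 3 others with a probe set, HEMA3, HEMB2 and HEMF2, isoforms of steps that lead to protoporphyrin IX, had intensities between 6.16 and 14.6 on all arrays and were not tested. With zinc in dez 3 of the 4 tested genes were lower, against 17.4% of all tested probe sets, and 1 was higher, against 16.8%. None of the 4 passed for zinc in wild type or for dez on control medium, against 0.725% and 9.67% of all tested probe sets. Between the genotypes on high zinc, CHLI2 (-0.93, adjusted p = 5.66e-04) and LYC (-0.50, adjusted p = 0.00593) were lower in dez, against 20.7% of all tested probe sets.

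Of 26 marker genes of light response, root, epidermis and seed reserves, 3 had a probe set that the annotation assigns to that gene alone. None of these was a light-response gene, so growth in darkness could not be checked on them. The annotation used here does not list 8730 probe sets, so this does not show that the array lacks probe sets for the other markers. BGLU23 (PYK10), an abundant root glucosidase, had 3061 and 3030 in dez on high zinc, against 3657 and 3747 in dez on control medium (-0.28, limma adjusted p = 0.0492). In wild type it had 3408 and 2827 on high zinc, against 3701 and 3878 on control medium (-0.29, adjusted p = 0.283), and its interaction was 0.0064 (adjusted p = 0.982). OLEO3, an oleosin of seed oil bodies, had 27.3 and 24.6 in dez on high zinc, against 92.3 and 61.9 in dez on control medium (-1.13, adjusted p = 0.00255). In wild type it had 98.9 and 72.0 on high zinc, against 125.9 and 75.4 on control medium (-0.18, adjusted p = 0.812). Its interaction of -0.95 did not pass (adjusted p = 0.0541). EXPA7, a root hair expansin, was too dim to test, with 14.2 and 28.2 in dez on high zinc, against 10.2 and 8.80 in dez on control medium. The part of these shifts in the falls of the chlorophyll genes was not tested.

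Among 7209 other genes tested, those whose profiles over the 8 arrays were most like each member were named by Pearson r. For HEME2 they were AT1G72030 (r = 0.992) and TRXF2, a plastid thioredoxin (r = 0.991). For HEME1 they were AT5G65220 (r = 0.986) and GSTU18, a tau class glutathione transferase (r = 0.985). CHLM was most like AT1G15260 and AT3G47070 (both r = 0.997), PORB most like JKD, a zinc finger protein of root patterning (r = 0.998), and AT1G67910 (r = 0.995), and CHLP most like AT2G26500 and AT1G45230 (both r = 0.987). For GSA1 they were ILA (r = 0.984) and AT3G18510 (r = 0.963), for HEMB1 AT2G03200 (r = 0.973) and AT1G10850 (r = 0.962), and for HEMA2 AT1G10050 (r = 0.964) and ENGase85A, an endoglucosaminidase of glycan turnover (r = 0.959). None of these genes is named for more than 1 member. They are the top 2 of 7209 by r for each member, so a high r is built into the choice. The 8 arrays share their groups, and r without the arrays of dez on high zinc was not computed for these genes. A profile over 8 arrays can match closely while the size differs: JKD fell by 0.55 with zinc in dez and PORB fell by 1.29, and AT3G47070 had an interaction of -2.40, against -1.63 for CHLM.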

How the data were processed

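Biotin-labelled cRNA of whole etiolated seedlings was read on ATH1 arrays, per the labels' protocols. The authors deposited linear intensities, 1 for each probe set on each array. The submitters' processing notes name MAS5 without role or version, and the scaling of arrays is not stated in the sources used here. Of 22810 probe sets, 64 controls were set aside. The analysis used log2(intensity + 16), a scale on which changes of dim genes look smaller than they are. The brightest 60% of probe sets, ranked on their mean intensity, were tested (13648). limma 3.58.1 under R 4.3.3 estimated 4 group means from all 8 arrays (eBayes with a trend). The 5 comparisons were tested two-sided, with Benjamini-Hochberg adjustment over all tested probe sets, and the procedure was tested on simulated data. Names came from the platform annotation and RefSeq (TAIR10.1) gene identifiers: 13436 probe sets had 1 gene with a RefSeq match, 503 had several genes and 8730 were not listed. CHLP is listed there by its locus. The named genes were all members, tested genes of pathway lists, and the 2 genes most like each member. The members, lists and alternatives were chosen with earlier results of these data known. p-values measure the spread between biological replicates of pooled seedlings. Alternatives changed the normalization, pseudocount, filter, variance prior, covariate and arrays used. Spike scaling divided each array by its mean over 8 poly-A control probe sets (3' ends of dap, lys, phe and thr) before the pseudocount. The scaling error of an array is shared by all its probe sets, but limma pooled the spread over them as if it were not. In that scaling the adjusted p-values may be too small and the intervals too narrow. No member had another single-gene probe set, so that alternative was not run.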

Additional observations from a re-analysis of the deposited data

Results flagged for a closer look

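By limma's interaction test 6 of the 8 genes answered zinc differently in dez than in wild type, all with a negative interaction, against 10.6% of all tested probe sets. The interaction on the log2 scale was -0.72 for HEMB1, -1.30 for HEME1, -1.37 for HEME2, -1.63 for CHLM, -1.31 for PORB and -1.002 for CHLP, against a median of 0.02 over all tested probe sets. For these 6 genes both high-zinc arrays were below both control arrays in dez (35.3% of all tested probe sets). In wild type both were above both control arrays for HEMB1, HEME1, HEME2 and CHLM (21.2% of all tested probe sets). For PORB and CHLP the wild-type arrays overlapped. Under poly-A spike scaling none of the 8 genes passed for the interaction, against 4.26% of all tested probe sets. The groups of 2 arrays are too small to test for a single array that stands apart.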

How the results depend on the processing

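Calls for the 5 genes from HEME1 to CHLP in dez, and for all 6 genes of the interaction, held under every alternative run except poly-A spike scaling. Under that scaling 1 gene passed for zinc in dez (HEMA2, higher), against 6, 4 passed for dez on high zinc, against 7, and 0 passed for the interaction, against 6. The share of all tested probe sets called was 15.1%, 56.9% and 4.26% in that scaling, against 34.2%, 43.1% and 19.7% as deposited. The replicate numbers are not stated to pair samples, and deviations of same-numbered arrays had r from -0.36 to 0.37 between groups. With the replicate block 1 gene passed for dez on control medium (PORB, limma adjusted p = 0.0452), against 0. The share of all tested probe sets called in that comparison was 8.35%, against 9.67% without the block. In the other comparisons the counts of the 8 genes did not move. Leaving out each array in turn leaves 1 array in a group, which is assumed to vary like the other groups, so ranges of the differences are given here. Zinc in dez ranged from -1.10 to -0.78 for HEME1, -0.96 to -0.79 for HEME2 and -1.42 to -1.17 for CHLM. It ranged from -1.46 to -1.13 for PORB, -1.28 to -0.84 for CHLP, -0.33 to -0.24 for HEMB1 and 0.36 to 0.76 for HEMA2. The interaction of the 6 genes stayed between -1.76 and -0.65. For dez on high zinc the genes from HEME1 to CHLP stayed between -1.83 and -0.88. The 8 genes lay between -0.25 and 0.57 for zinc in wild type, and between -0.51 and 0.39 for dez on control medium.

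HEMB1 apart, which was lower in dez on high zinc as deposited, no value that changed sign had passed the threshold as deposited or passed it after the change. Under poly-A spike scaling HEMA2 and CHLP had 0.027 and 0.025 for zinc in wild type, HEMB1 0.11 for zinc in dez, HEMA2, PORB and CHLP 0.29, 0.12 and 0.38 for dez on control medium, HEMB1 0.32 for dez on high zinc, and GSA1 0.19 for the interaction. With quantile normalization PORB had -0.0050 for zinc in wild type, GSA1 -0.0041 for zinc in dez and CHLM -0.0077 for dez on control medium. CHLM in that comparison had -0.0104 with median centring and -0.13 with the 3' to 5' gap as a covariate. With arrays left out in turn, zinc in wild type ranged from -0.25 to 0.16 for HEMA2, -0.083 to 0.12 for PORB and -0.17 to 0.050 for CHLP. Zinc in dez ranged from -0.076 to 0.18 for GSA1, and dez on high zinc from -0.040 to 0.22. For dez on control medium the ranges were -0.28 to 0.13 for HEMA2, -0.060 to 0.094 for CHLM and -0.21 to 0.0069 for CHLP. The cause of these changes was not tested. HEMA2 did not pass the filter at the upper 40% of probe sets and has no value there. The sources used here give no background level, so how far HEMA2 stands above background cannot be stated.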
